A study of Mus musculus with 6 samples.

Results

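*Trf*, *Tfrc*, *Steap3*, *Slc11a2*, *Fth1*, *Ftl1*, *Slc40a1*, *Ireb2* and *Hmox1* encode proteins that carry, take up, store, export or regulate iron, or free it from haem. These 9 genes were found by their symbols among the 23284 genes listed, and all 9 had a value above 0 in every sample. They were followed in ECFP+ OBs that had been isolated from ectopic bone induced with BMP-2, 3 samples taken 10 days and 3 samples taken 14 days after implantation, a period in which the induced OBs change shape and mineral is deposited. The group was chosen by role, with the day 10 and day 14 FPKM of these samples already known, so its day differences are given as a description, without a test. All mice were male *Col2.3*-ECFP mice of 12 to 16 weeks, whose OBs carry a cyan fluorescent protein under the *Col2.3* promoter, and all carried a subcutaneous collagen sponge with 2.5 μg of BMP-2. CD45+ cells and dead cells had been gated out. The tissue was digested with collagenase 1 time for the day 10 and 2 times for the day 14 samples, so day and digestion cannot be told apart. The titles place all 3 later samples on day 14, which was used here, while the free-text descriptions give day 14, 15 and 16 for replicates 1, 2 and 3. The replicates are called biological in the titles, without saying whether each came from 1 mouse or from several.

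Iron travels in extracellular fluid bound to transferrin and enters cells when transferrin binds its receptor and is taken into endosomes, where a STEAP reductase and the transporter DMT1 release the metal to the cytosol. Spare iron is kept in the ferritin shell, which is built from heavy and light chains, and leaves the cell through ferroportin. Iron regulatory proteins bind a short hairpin, the iron-responsive element (IRE), in some of the mRNAs when iron is scarce. Binding before the coding region, as in ferritin, blocks translation, and binding after it, as in the transferrin receptor, protects the mRNA. In bone, iron is a cofactor of the hydroxylases that modify collagen chains, and iron overload is known to be harmful to OBs.

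The IREs are shown because they are the sequence feature that the ferritin chains, ferroportin and the transferrin receptor share. GENCODE vM21 protein-coding transcripts (mm10) were searched on their own strand for a C, 5 bases, the loop CAGTGN and 5 bases that pair with the former 5, with G-T pairs allowed. Such a run was found in 294 of 21877 protein-coding genes (1.34%) and in 4 of the 9 genes. The pattern is strict, so an IRE with an unpaired base in this stem would be missed. A gene without a match, such as *Slc11a2*, may thus still hold an IRE. Each window below has 30 bases, 5′ to 3′, in DNA letters, with the 6 bases of the loop in capitals. In *Fth1*, at chr19:9982731-9982760 on the plus strand, and in *Ftl1*, at chr7:45459779-45459808 on the minus strand, the run lies before the coding region, and the windows are identical at 27 of 30 positions. In *Slc40a1*, at chr1:45925465-45925494 on the minus strand, it also lies before the coding region. *Tfrc* holds 4 runs after the coding region on the plus strand, from chr16:32631218-32631247 for the run named a, through chr16:32631597-32631626 for b and chr16:32631662-32631691 for c, to chr16:32631709-32631738 for d.
Fth1: tttcctgcttcaaCAGTGCttgaacggaac
Ftl1: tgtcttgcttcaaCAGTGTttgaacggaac
Slc40a1: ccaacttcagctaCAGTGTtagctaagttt
Tfrc a: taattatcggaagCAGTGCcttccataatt
Tfrc b: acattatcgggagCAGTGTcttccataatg
Tfrc c: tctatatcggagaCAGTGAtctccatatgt
Tfrc d: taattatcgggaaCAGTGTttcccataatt
The run was in 4 of 5 coding transcripts of *Fth1*, 1 of 2 of *Ftl1*, 1 of 4 of *Slc40a1* and 1 of 3 of *Tfrc*. The deposited values give 1 number per gene, so transcripts with and without an IRE cannot be told apart, and neither translation nor protein was measured.

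The values are FPKM, in which the fragments of a gene are divided by its exon length and by the mapped fragments of the sample, so that levels of different genes can be compared. The depth, estimated from the steps between low FPKM values, was 4557500 to 7789000 reads per sample, at which 3 reads on 1000 usable bases correspond to 0.385 to 0.658 FPKM. These floors cover counting error only. The 9 genes rested on at least 32 estimated reads per sample, the lowest for *Tfrc*. All 7 OB markers were above 0 FPKM in every sample, with a median log2 difference of day 14 from day 10 of −1.69. Replicate 2 of day 14 stood apart from the other day 14 samples. Its cartilage gene *Col2a1* was at 688 FPKM, against 12.1 and 8.75 FPKM in replicates 1 and 3 of that day and 189 to 373 FPKM on day 10. Differences of the 9 genes are therefore given with and without this sample, as differences of day means of log2(FPKM + 0.1) with the standard error from limma.

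*Trf*, which encodes transferrin, had the largest difference of the 9 genes. On day 10 it was at 30.6, 44.0 and 34.7 FPKM in replicates 1, 2 and 3, and on day 14 at 113, 77.6 and 88.8 FPKM. The 3 day 14 values all exceeded the 3 day 10 values. The mean went from 36.4 ± 6.83 to 93.0 ± 17.9 FPKM (SD, n = 3), a log2 difference of 1.35 (standard error 0.20), or 2.55-fold. Without replicate 2 of day 14 the log2 difference was 1.47, and with each sample left out in turn it stayed between 1.20 and 1.49. *Trf* lies on chromosome 9 from 103204001 to 103230444 on the minus strand, and 2108 of its exon bases are shared with the annotated gene *Gm20425* on the same strand, which was not among the genes listed.

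*Tfrc*, the transferrin receptor that brings iron-loaded transferrin into the cell, was the lowest of the 9 genes on both days. It was at 1.39, 2.16 and 1.31 FPKM (day 10) against 2.37, 3.47 and 1.71 FPKM (day 14) in replicates 1, 2 and 3. The day 14 range began below the highest day 10 sample, so the days overlapped. The log2 difference was 0.59 (standard error 0.37), and it was 0.33 without replicate 2 of day 14, which held the highest value.

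*Steap3*, the endosomal reductase that turns ferric into ferrous iron, was at 22.4, 20.7 and 23.1 FPKM (day 10) against 27.6, 19.9 and 32.9 FPKM (day 14). Replicate 2 of day 14 was the lowest of all 6 samples, and the other 2 day 14 samples were the highest. The log2 difference of *Steap3* was 0.25 (standard error 0.20) with all samples and 0.45 without that replicate. *Slc11a2*, which encodes the iron transporter DMT1, lay within 17.2 to 17.5 FPKM on day 10 and spread over 15.2, 19.1 and 31.4 FPKM on day 14. The spread on day 14 came from replicate 3, and without it the log2 difference went from 0.27 (standard error 0.25) to −0.03, while it was 0.33 without replicate 2 of that day. *Gm5475*, listed separately at 0.134 to 1.86 FPKM, overlaps 402 exon bases of *Slc11a2* on the opposite strand, and reads of the 2 genes cannot be told apart there if the library did not keep the strand.

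**Figure D1:**
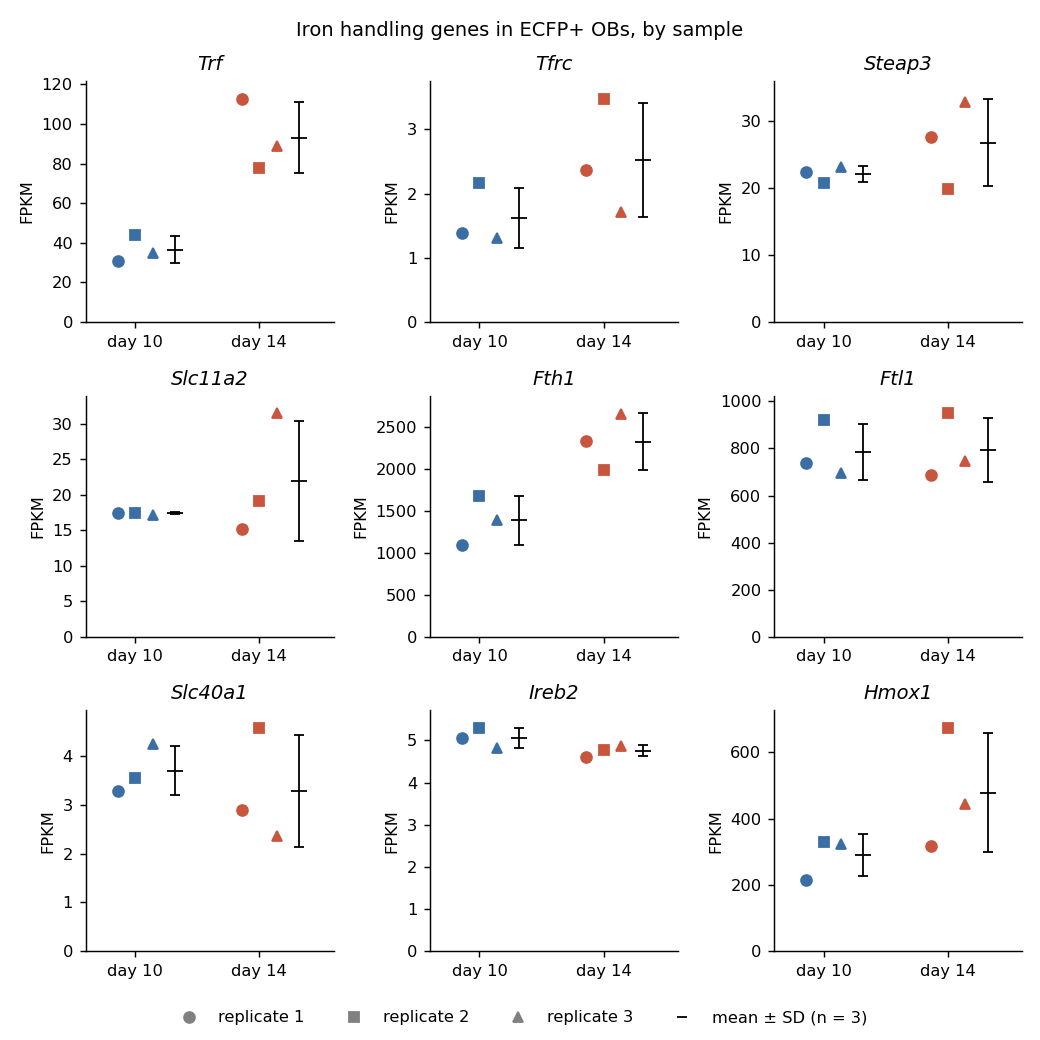
FPKM of the 9 iron handling genes (vertical axes, each from 0) in each day 10 and day 14 sample, with the replicate as the marker shape and the mean ± SD (n = 3) as the bar beside the points. *Trf* and *Fth1* are the genes whose day 14 samples all lie above their day 10 samples, from 77.6 to 113 against 30.6 to 44.0 FPKM for *Trf*.

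Both ferritin chains were among the genes with the highest FPKM, and *Fth1* alone of them had days that did not overlap. *Fth1*, the heavy chain that oxidises iron as it enters the shell, ranked 15 of all 23284 genes by mean FPKM. It was at 1097, 1684 and 1388 FPKM (day 10) against 2333, 1985 and 2662 FPKM (day 14), with no overlap between the days. The mean went from 1389 ± 294 to 2327 ± 338 FPKM (SD, n = 3), a log2 difference of 0.76 (standard error 0.29) that was 0.86 without replicate 2 of day 14. *Ftl1*, the light chain that helps the iron core to form, ranked 60. It was at 737, 922 and 695 FPKM (day 10) against 687, 949 and 748 FPKM (day 14), so that each day 14 sample lay close to the day 10 sample of the same rank. Its log2 difference was 0.02 (standard error 0.23), and −0.12 without replicate 2 of day 14.

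The ratio of the chains within a sample does not depend on how the sample was scaled. *Ftl1* to *Fth1* was 0.672, 0.547 and 0.501 on day 10 and 0.295, 0.478 and 0.281 on day 14. All day 14 ratios were below all day 10 ratios, and replicate 2 of day 14 was nearest to day 10. The mean ratio went from 0.573 ± 0.089 to 0.351 ± 0.110 (SD, n = 3 a day). Set against 1000 FPKM of *Fth1*, *Tfrc* was at 1.27, 1.28 and 0.943 FPKM (day 10) against 1.02, 1.75 and 0.644 FPKM (day 14). Here day 14 held both the highest and the lowest sample, and the day means were 1.16 ± 0.191 and 1.14 ± 0.563 (SD, n = 3). Ferritin genes have near-identical copies elsewhere in the genome, and the treatment of reads that map to several places is not given in the sources used here, so the FPKM of *Fth1* and *Ftl1* are uncertain to that extent.

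**Figure D2:**
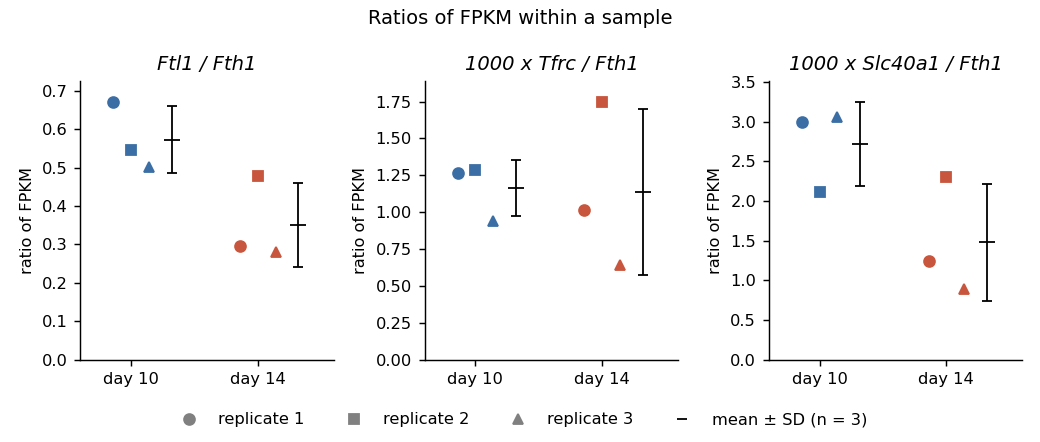
Ratios of FPKM within each sample (vertical axes, from 0) for *Ftl1*, *Tfrc* and *Slc40a1* over *Fth1*, the latter 2 multiplied by 1000, with the mean ± SD (n = 3) beside the points. The *Ftl1* to *Fth1* ratio lies at 0.501 to 0.672 on day 10 and at 0.281 to 0.478 on day 14, while the ratios of the other 2 genes overlap between the days.

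*Slc40a1* encodes ferroportin, the only known exporter of iron from cells. It was at 3.28, 3.55 and 4.25 FPKM (day 10) against 2.89, 4.57 and 2.36 FPKM (day 14). Replicates 1 and 3 of day 14 were the lowest of all samples and replicate 2 was the highest. The log2 difference was −0.21 (standard error 0.30) with all samples and −0.47 without replicate 2 of day 14.

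*Ireb2* encodes iron regulatory protein 2, which binds the IREs. It had the narrowest spread of the 9 genes across all samples, at 5.06, 5.29 and 4.81 FPKM (day 10) against 4.61, 4.78 and 4.87 FPKM (day 14). The days overlapped, and the log2 difference of *Ireb2* was −0.09 (standard error 0.19) with all samples, and also −0.09 without replicate 2 of day 14. *Hmox1*, haem oxygenase 1, which opens the haem ring and sets its iron free, ranked 139 of all genes. It was at 216, 331 and 325 FPKM (day 10) against 318, 674 and 446 FPKM (day 14). Replicates 2 and 3 of day 14 were above all day 10 samples, and replicate 1 lay among them. The log2 difference of *Hmox1* was 0.68 (standard error 0.30), and 0.40 without replicate 2 of day 14, which held the highest value.

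In order of the mean FPKM, the 9 genes stood as *Fth1*, *Ftl1*, *Hmox1*, *Trf*, *Steap3*, *Slc11a2*, *Ireb2*, *Slc40a1* and *Tfrc* on both days. On day 10 no neighbours in this order overlapped in their sample values. On day 14, *Steap3* overlapped with *Slc11a2*, and *Slc40a1* with *Tfrc*. The FPKM of *Trf* was thus above that of its receptor *Tfrc* in each sample, by a ratio of 20.3 to 26.5 on day 10 and of 47.5, 22.3 and 51.8 in replicates 1, 2 and 3 of day 14. The ratio in replicate 2 lay within the day 10 range, while those of the other 2 samples were above it.

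Of the 9 genes, 7 had a higher and 2 a lower mean on day 14, and their median log2 difference was 0.27, beside −0.04 over the 19526 genes tested. 1 of the 9, *Trf*, was more than 2-fold higher, beside 5.25% of all genes tested, and none was more than 2-fold lower, beside 8.39%. Both shares depend on the pseudocount and were 1.41% and 1.22% when it was 1, with *Trf* still the 1 gene of the 9 past 2-fold. The days did not overlap in 2 of the 9, both higher on day 14, beside 7.59% of all genes tested that were higher and 6.67% that were lower without overlap. Among genes with a mean above 1 FPKM, which held for all 9, the share without overlap in either direction was 20.3%. No reading is drawn from these counts, because the genes were chosen with results of the same comparison known. Without replicate 2 of day 14, 4 of the 9 did not overlap, namely *Trf*, *Steap3* and *Fth1*, higher on day 14, and *Slc40a1*, lower, beside 28.5% of all genes in these 5 samples.

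**Figure D3:**
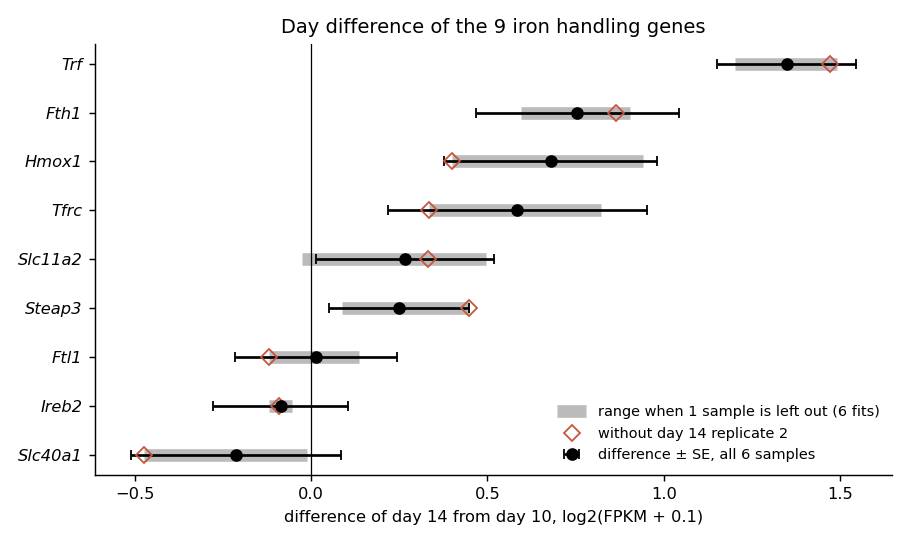
Difference of day 14 from day 10 for the 9 genes on the scale of log2(FPKM + 0.1) (horizontal axis), with the standard error from all 6 samples as bars, the range when each sample is left out in turn in grey, and the value without replicate 2 of day 14 as an open diamond. *Trf* stays between 1.20 and 1.49 when samples are left out, and the range of *Slc11a2* and *Ftl1* includes 0.

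Markers of other cells varied across the same samples. In bulk RNA, fewer cells of a type and less RNA per cell cannot be told apart. All 12 myeloid markers were above 0 FPKM in at least 1 sample, and their summed level was 38.4 to 155.5 FPKM on day 10 and 268, 20.2 and 647.5 FPKM in replicates 1, 2 and 3 of day 14. *Lyz2* led the list at 6.35 to 454 FPKM, and *Ptprc*, which encodes the gated CD45, was at 0.134 to 2.99 FPKM. On day 14, *Lyz2* alone made up 160 of the 268 FPKM of replicate 1 and 454 of the 647.5 FPKM of replicate 3. Replicate 1 of day 14 exceeded every day 10 sample for most of the list, but not for *Csf1r*, *Cd68*, *Tyrobp* or *Cd163*. The median log2 difference of the list was 0.44, and the differences of *Csf1r*, *C1qb* and *Cd163* were negative. Replicates 1 and 3 of day 14, which had the highest myeloid sums, also had the highest *Trf* and *Fth1*, and replicate 2, which had the lowest myeloid sum of the 6 samples, held 77.6 FPKM of *Trf* and 1985 FPKM of *Fth1*. The part of myeloid cells in this was not tested. The 10 chondrocyte markers, all above 0 in at least 1 sample and led by *Comp*, summed to 769 to 1605 FPKM on day 10 and to 230, 2406 and 173 FPKM on day 14. *Trf* was at 113 and 88.8 FPKM in the samples with the lowest cartilage sums. *Hmox1*, *Tfrc*, *Slc40a1* and *Ftl1* had their highest value and *Steap3* its lowest in the sample with the highest cartilage sum, and the part of cartilage cells in these values was not tested.

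OB markers varied across the day 14 samples as well. *Ibsp*, which encodes bone sialoprotein, had 25254, 15910 and 10072 FPKM (day 10) against 3460, 15632 and 1293 FPKM (day 14). *Alpl*, the alkaline phosphatase of mineralizing cells, was at 1129, 1055 and 809 FPKM (day 10) against 273, 1300 and 186 FPKM (day 14). For both genes replicates 1 and 3 of day 14 were the lowest of all samples, and they were the samples with the highest *Trf* and *Fth1*. *Sp7*, a transcription factor that OBs need, was at 73.7, 51.1 and 40.1 FPKM (day 10) against 9.79, 27.9 and 4.09 FPKM (day 14). It was the 1 OB marker of 7 whose days did not overlap, beside 14.3% of all genes tested in either direction. The part of these differences in the values of the iron genes was not tested.

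Of the other lists described, the 8 osteoclast markers summed to 447 to 490 FPKM on day 10 and 628 to 676 FPKM on day 14, most of it *Ctsk*, at 403 to 425 and then 574 to 614 FPKM. *Acp5*, another osteoclast gene, overlapped between the days at 18.3 to 37.7 FPKM. Of the 8 osteoclast markers, 6 had a lower mean of log2(FPKM + 0.1) on day 14, among them *Oscar*, *Dcstamp*, *Ocstamp* and *Atp6v0d2*, and the median log2 difference of the list was −0.60. *Ocstamp*, at 0.294 to 0.727 FPKM on day 10 and 0.162 to 0.2501 FPKM on day 14, was lower without overlap. Its day 14 values lay below 0.385 FPKM, the lowest of the levels given above for 3 reads on 1000 usable bases. The 9 erythroid markers, of which *Hba-a1* had the highest mean, summed to 35.5 to 117 FPKM on day 10 and 43.1 to 129 FPKM on day 14, and *Hbb-bs*, listed under an older symbol, was at 14.9 to 50.4 FPKM. Globin genes are near-identical copies, so their single values are uncertain. The 7 endothelial markers, led by *Tek*, stayed at sums of 1.69 to 3.11 FPKM on day 10 and 3.18 to 6.09 FPKM on day 14, with *Pecam1* at 0.268 to 1.35 FPKM. The 5 adipocyte markers were nearly all *Fabp4* (8.48 to 30.7 FPKM), with *Cfd* at 0 in all samples, and the 5 muscle markers, led by *Acta1*, summed to at most 9.16 FPKM. All 6 proliferation markers, including *Mki67* and *Birc5*, were lower in every day 14 sample than in every day 10 sample, beside 6.67% of all genes tested. Their sums were 33.4 to 52.2 FPKM on day 10 and 21.7 to 25.1 FPKM on day 14. The sums of the osteoclast and endothelial lists were higher and those of the proliferation list lower on day 14 without overlap. For the endothelial list the gap was narrow, 3.11 against 3.18 FPKM, and none of its 7 markers reached 1 FPKM in all samples. The part of these 3 lists in the values of *Trf* and *Fth1* was not tested.

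Beyond the 9 genes, 85 other genes of iron and haem handling were listed, of which 82 passed the filter of a mean FPKM above 0.1. None of the 82 had an adjusted p under 0.05 from limma, beside 0.0154% of all genes tested, and none had one in the 16 other settings. At an unadjusted p under 0.05 from limma, 19 of the 82 differed between the days (23.2%), 11 higher and 8 lower on day 14, beside 10.0% of all genes tested (5.60% higher and 4.40% lower). Without replicate 2 of day 14 it was 18 genes, beside 2557 of 19674 genes in all. Among genes with a mean above 1 FPKM the shares were 19 of 72 (26.4%) and 15.3%. The median log2 difference of the 82 genes was 0.13, beside −0.04 over all genes. These lists, too, were chosen with earlier results of these data known, so no reading is drawn from their counts. The shares of 5.60% higher and 4.40% lower over all genes also stand beside the counts of each list below.

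In the list for uptake and release from endosomes, 3 of 14 genes were higher and 1 was lower at an unadjusted p under 0.05. *Tfr2*, a transferrin receptor related to *Tfrc*, was at 5.03, 5.95 and 12.3 FPKM (day 10) against 19.8, 12.95 and 19.5 FPKM (day 14), a log2 difference of 1.24 (standard error 0.34, adjusted p = 0.319 from limma). All day 14 samples were above all day 10 samples, and *Tfr2* was above *Tfrc* in each of the 6 samples, by a ratio of 2.75 to 11.4. *Cybrd1*, a reductase of ferric iron at the cell surface, was at 8.36, 5.81 and 4.39 FPKM (day 10) against 1.18, 1.99 and 0.226 FPKM (day 14), a log2 difference of −2.67 (standard error 0.64, adjusted p = 0.305 from limma). It was the largest difference of the 82 genes in size, and it was −1.89 without replicate 3 and −3.23 without replicate 2 of day 14. *Lrp1*, a receptor that takes up haem bound to haemopexin among many other ligands, had a log2 difference of 0.51 (standard error 0.18, adjusted p = 0.403 from limma). *Scara5*, a receptor for ferritin that was named after its value was seen, was the other higher gene (log2 difference 0.65). *Slc39a14*, a carrier of zinc and of iron not bound to transferrin, had the highest mean of the list and overlapped between the days at 72.1 to 130 and 103 to 154 FPKM.

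In the list of ferroxidases, the haem exporter *Mfsd7b* and its relative *Mfsd7c*, 3 of 5 genes had an unadjusted p under 0.05. *Cp*, ceruloplasmin, which oxidises iron so that transferrin can bind it, had the smallest p of the 82 genes. It was at 13.3, 21.3 and 22.5 FPKM (day 10) against 44.9, 39.8 and 34.9 FPKM (day 14), a log2 difference of 1.09 (standard error 0.22, limma adjusted p = 0.292). The days were apart, and the difference stayed between 0.85 and 1.23 when each sample was left out. *Mfsd7c*, now named *Flvcr2*, was lower on day 14, at 11.6, 6.75 and 6.24 against 2.30, 3.60 and 0.877 FPKM, a log2 difference of −1.96 (standard error 0.48, adjusted p = 0.305 from limma), which was −2.38 without replicate 2 of day 14. Its relative *Mfsd7b* (*Flvcr1*), the haem exporter, was higher (log2 difference 0.58) and was named after its value was seen.

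In the haem synthesis list, 4 of 9 genes were lower and none was higher at an unadjusted p under 0.05, beside 4.40% and 5.60% of all genes tested. The median log2 difference of the list was −0.24, with 3 genes positive and 6 negative. The positive genes were *Alas1* (0.18), *Alas2* (0.49) and *Ppox* (0.015), which overlapped between the days and were named after their values were seen. *Alad*, which joins the precursors into a pyrrole, was at 14.5, 10.7 and 9.33 FPKM (day 10) against 3.45, 7.38 and 6.69 FPKM (day 14), a log2 difference of −1.01 (standard error 0.31, adjusted p = 0.360 from limma). *Uros*, which closes the ring, went from 6.07 ± 0.139 to 4.11 ± 0.362 FPKM (SD, n = 3), a log2 difference of −0.55 (standard error 0.19, adjusted p = 0.404 from limma). *Urod*, the following enzyme, went from 27.95 ± 4.74 to 19.7 ± 1.88 FPKM (SD, n = 3), a log2 difference of −0.49 (standard error 0.18, adjusted p = 0.407 by limma). The days were apart for these 3 genes and for *Cpox*, the enzyme after *Urod*, which had a log2 difference of −0.69 and was named after its value was seen. *Fech*, which inserts the iron into the ring in mitochondria, had the highest mean of the list and overlapped between the days at 34.7 to 41.9 and 27.8 to 37.8 FPKM.

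**Figure D4:**
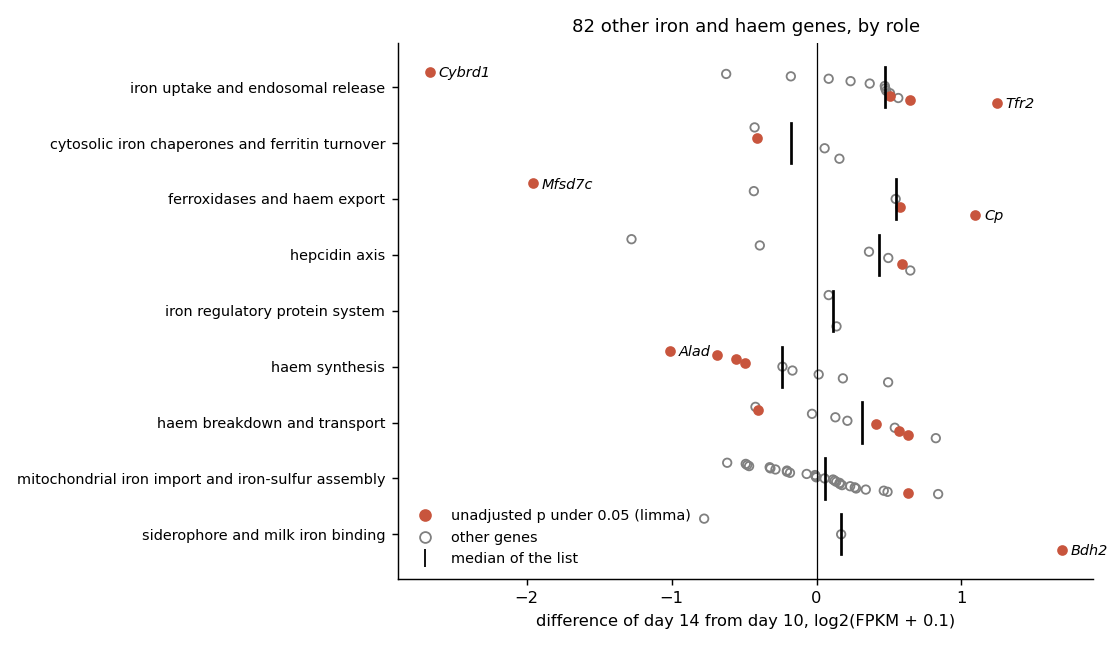
Difference of day 14 from day 10 on the scale of log2(FPKM + 0.1) (horizontal axis) for the 82 other iron and haem genes in 9 lists by role, with filled points for an unadjusted p under 0.05 from limma and a bar for the median of each list. The haem synthesis list holds 4 filled points, all lower on day 14, and the list for mitochondrial iron and iron-sulfur assembly holds 1 filled point among 29.

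In the list for haem breakdown and transport, 3 of 10 genes were higher and 1 was lower at an unadjusted p under 0.05. *Blvrb*, a biliverdin reductase, had a log2 difference of 0.63 (standard error 0.18, adjusted p = 0.332 from limma), from 19.4 ± 3.88 to 29.8 ± 2.43 FPKM (SD, n = 3). *Blvra*, the other biliverdin reductase of the list, overlapped between the days (log2 difference −0.03) and was named after its value was seen. *Nfe2l2*, which encodes NRF2, a transcription factor known to switch on *Hmox1* and both ferritin chains, was at 38.0, 51.2 and 45.5 FPKM (day 10) against 65.5, 59.5 and 74.0 FPKM (day 14), a log2 difference of 0.57 (standard error 0.17, adjusted p = 0.340 from limma). *Pgrmc1*, a haem-binding membrane protein, was also higher (log2 difference 0.41), and *Hmox2*, the constitutive haem oxygenase, was lower (log2 difference −0.40), both named after their values were seen. *Hp*, haptoglobin, had the highest mean of the list and ranged from 84.5 to 424 FPKM on day 14, with its highest value in replicate 3, the sample with the highest *Lyz2*.

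Of the hepcidin axis, 6 of 8 genes passed the filter. *Hfe*, a partner of the transferrin receptors, was at 7.82, 8.398 and 8.05 FPKM (day 10) against 12.7, 11.3 and 12.7 FPKM (day 14), a log2 difference of 0.59 (standard error 0.16, adjusted p = 0.319 from limma), and was the only gene of this list with an unadjusted p under 0.05. *Neo1*, a binding partner of hemojuvelin, had the highest mean of the list and did not overlap between the days, at 27.6 to 33.7 against 36.6 to 46.45 FPKM. In the list of cytosolic chaperones and ferritin turnover, *Pcbp1*, which hands iron to ferritin, was at 97.9 to 124 FPKM on day 10 and at 74.8 to 88.0 FPKM on day 14 (log2 difference −0.41, standard error 0.16, adjusted p = 0.433 from limma), and was the 1 gene of 4 with an unadjusted p under 0.05. Neither of the other genes of the iron regulatory protein system had such a p, and *Fbxl5*, which marks IRP2 for breakdown when iron is plentiful, overlapped at 19.9 to 32.0 and 18.6 to 31.9 FPKM.

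Of 29 genes of mitochondrial iron import and iron-sulfur assembly, 1 had an unadjusted p under 0.05 (3.45%), the median log2 difference was 0.06, and 15 were higher and 14 lower. That gene was *Fdx1*, a ferredoxin named after its value was seen, with a log2 difference of 0.63. *Glrx5*, a glutaredoxin that passes on iron-sulfur clusters, had the highest mean of the list and overlapped at 63.6 to 68.1 and 50.6 to 67.7 FPKM. Of the genes of siderophore and milk iron binding, 1 of the 3 tested had such a p. This was *Bdh2*, a dehydrogenase proposed to make a mammalian siderophore, at 1.69, 3.67 and 2.45 FPKM (day 10) against 7.12, 5.77 and 13.7 FPKM (day 14) (log2 difference 1.69, standard error 0.39, adjusted p = 0.298 from limma). *Slc22a17*, a receptor for lipocalin 2, had the highest mean of that list and overlapped between the days at 10.8 to 17.5 and 5.76 to 15.2 FPKM.

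**Figure D5:**
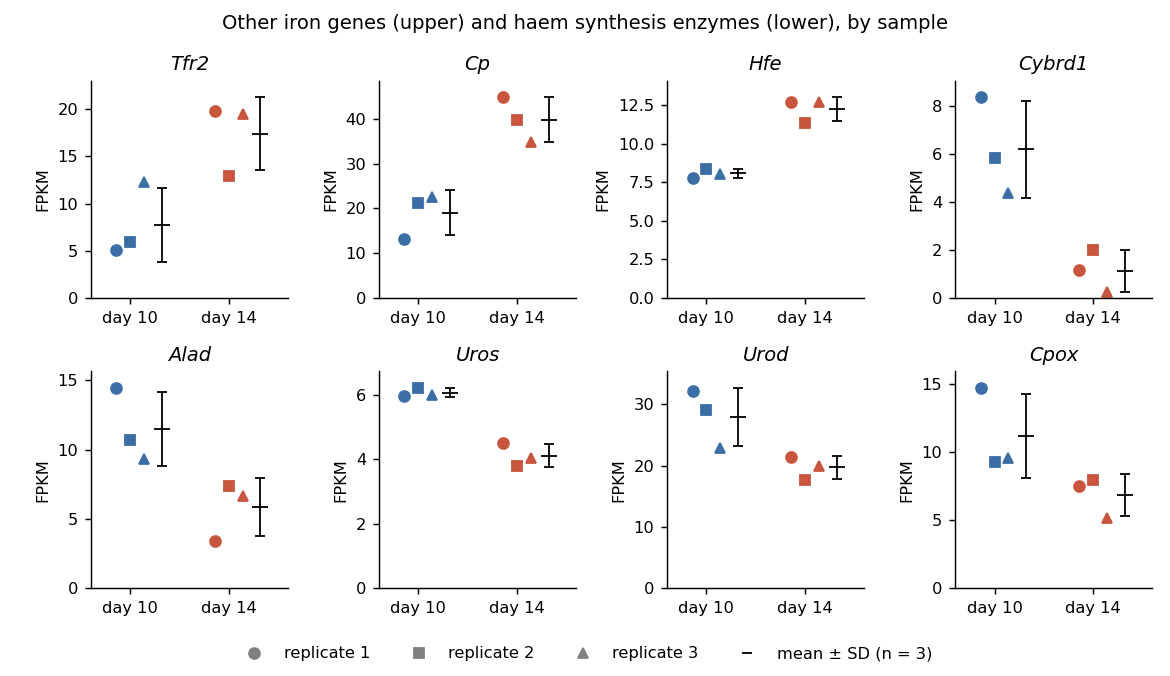
FPKM (vertical axes, each from 0) of 4 iron genes outside the 9 and of 4 haem synthesis enzymes in each sample, with the mean ± SD (n = 3) beside the points. *Tfr2*, *Cp* and *Hfe* lie higher and the 5 others lower in every day 14 sample than in every day 10 sample. All genes shown are among those with an unadjusted p under 0.05 from limma, so this separation follows largely from that choice.

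The genes most like *Trf* across the 6 samples, by Pearson's r of log2(FPKM + 0.1) among 11161 other genes with a mean of at least 1 FPKM, were *Gm2a* (0.990), *Rnf13* (0.988), *Fuca2* (0.983), *Hfe* (0.983) and *C1qtnf7* (0.980). The 6 samples fall into 2 days that differ in *Trf*, so these values mostly reflect the day, and they are a description over samples that share their libraries. *Gm2a*, a lysosomal activator of ganglioside breakdown, went from 14.0 ± 1.59 to 26.3 ± 5.04 FPKM (SD, n = 3), and *Fuca2*, a fucosidase, from 15.2 ± 1.17 to 20.1 ± 0.703 FPKM (SD, n = 3). *Rnf13*, an endosomal ubiquitin ligase, went from 30.9 ± 2.76 to 49.3 ± 5.73 FPKM, and *C1qtnf7*, a secreted protein of the C1q and TNF family, from 3.01 ± 0.343 to 8.75 ± 2.54 FPKM (SD, n = 3). In all 5 genes the day 14 samples were above the day 10 samples, and replicate 2 was the lowest of the day 14 samples, as it was for *Trf*. Genes chosen by their r to *Trf* share such a pattern largely through that choice.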

How the data were processed

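ECFP+ OBs of day 10 (n = 3) and day 14 (n = 3) were grouped by the sample titles. The authors aligned single-end reads of 75 bases (mm10) using TopHat2 2.0.13, Bowtie2 2.2.3 and SAMtools 0.1.19 and deposited FPKM per gene from Cufflinks 2.2.1, 1 file per sample, with no scaling between samples stated. The gene annotation is not given in the sources used here. In 1 file, 25 symbols turned into dates were restored by position, none of them an iron gene. Symbols of the lists were matched directly or through RefSeq synonyms. All genes with a mean FPKM above 0.1 were fitted together as log2(FPKM + 0.1) in limma 3.58.1 (R 4.3.3), using lmFit and eBayes with trend, the day being the only factor, and p-values were adjusted by Benjamini-Hochberg over the 19526 genes. This scale understates changes of low genes. The fit was tested on simulated data.

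Depth was estimated from 1977 genes with 1 transcript, at values up to 0.3 FPKM, so that low values fall on whole reads (74.7% to 79.7% came within 0.1 of one), taking fragments as 220 bases, the length at which these values lay closest to whole reads. Estimated reads of the 9 genes used the median length of RefSeq-matched transcripts in GENCODE vM21 and are approximate. The p-values set each day difference against the spread between samples of the same day, drawn toward a trend over all genes. Whether this is a spread between single mice is not known, as the mice per sample are not stated. The 9 genes and all lists were chosen with earlier results of these data known. Named beside the 9 genes were wider iron genes with an adjusted p under 0.05, the 12 with the smallest unadjusted p under 0.05 and a mean of at least 1 FPKM, the highest gene of each list, the 5 genes most like *Trf*, and markers fixed for each cell type, of which 1 list is not reported here. Alternatives were another pseudocount, filter, scaling, variance model, a replicate block, and each sample left out.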

Additional observations from a re-analysis of the deposited data

How the results depend on the processing

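At 32 to 96 estimated reads per sample for *Tfrc* and 42 to 104 for *Slc40a1*, counting error is largest for these 2 of the 9 genes. The log2 differences of *Trf*, *Tfrc*, *Steap3*, *Fth1*, *Slc40a1*, *Ireb2* and *Hmox1* kept their direction in all 14 alternatives, between 1.20 and 1.49 for *Trf*, 0.58 and 0.905 for *Fth1*, 0.40 and 0.94 for *Hmox1*, and −0.47 and −0.01 for *Slc40a1*. That of *Ftl1* turned negative in 5 of 14 (lowest −0.26, with quantile normalization) and that of *Slc11a2* in 1. No scaling moved the median of all genes by over 0.1, but quantile normalization moved the share of higher genes among those over 2-fold from 38.5% to 51.3%, and a pseudocount of 1 moved it to 53.5%. *Trf* was the 1 gene of the 9 over 2-fold in every alternative. The filters, the variance models and the replicate block cannot change these log2 differences, so only the other alternatives bear on them. Of the 9 genes, 2, 3 and 3 did not overlap between the days without replicate 1, 2 or 3 of day 10, beside 18.5%, 22.4% and 25.6% of all genes, and among these *Trf* and *Fth1* were included each time. 4 of the 9, *Trf* and *Fth1* included, did not overlap without replicate 1, 2 or 3 of day 14, beside 32.2%, 28.5% and 21.1%, and 3 after scaling by the sample median (with *Hmox1*, beside 14.8%) or to equal FPKM sums (with *Ireb2*, lower, beside 13.5%). None of the 82 wider genes reached an adjusted p under 0.05 (limma) in the 16 alternatives, and all 19 with an unadjusted p under 0.05 kept their direction. The count at an unadjusted p under 0.05 was 12 without the mean-variance trend, beside 6.86% of all genes, and 10 to 22 with 1 sample left out, the lowest without replicate 1 of day 10, beside 4.84% of all genes, and the highest without replicate 1 of day 14, beside 13.6%. The count over all genes at an adjusted p under 0.05 from limma was 3, against 8 with robust eBayes and 3 to 76 with 1 sample left out, the highest without replicate 2 of day 14. The cause of these changes was not tested. Day 10 and day 14 samples of equal replicate number had deviations that correlated across genes at 0.058, −0.00584 and 0.0887 for replicates 1, 2 and 3. With 1 such pair per number, these values cannot tell whether the samples of a pair had a common origin, which was not tested. With the replicate block, 22 wider genes had an unadjusted p under 0.05, beside 10.9% of all genes, and the count over all genes at an adjusted p under 0.05 was 2.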
